A study of Mus musculus with 12 samples.

Results

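A small set of mammary gland fibroblasts was selected from droplet-based 3′ single-cell RNA sequencing of 12 mouse libraries because each cell carried transcripts of Adamts8, a secreted metalloprotease of the ADAMTS family, or of Ccdc3, a secreted coiled-coil protein. Of 46257 cells that passed the filters, 33709 were fibroblasts, with at least 20 unique molecular identifiers (UMIs, counted transcripts) of Col1a1, Col1a2 and Col3a1 together and 0 of Ptprc, Pecam1 and Epcam. Of these, 1536 held at least 2 UMIs of Adamts8 and Ccdc3 together. Cells with many UMIs of markers of other fibroblast classes were then left out, namely those with Pi16 of 20 or more UMIs, Fabp4 of 10 or more, Gdf10 of 3 or more, any Tnc, Cilp of 2 or more, or both Pgr and Greb1. This left 295 cells, 0.875% of the fibroblasts (exact 95% interval 0.778 to 0.980%), which are called Adamts8/Ccdc3 cells below. The rule read measured UMIs, so the levels of its 15 genes and the contrast of the 295 cells with other cells are given as a description without a test.

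All animals were female C57BL/6J mice aged 43 weeks, and each of the 12 groups was 1 library of cells from the mammary gland. Intact mice received no 4-vinylcyclohexene diepoxide (VCD), which destroys small ovarian follicles and leaves the ovary in place. The other 11 groups received VCD at 160 mg/kg per day for 15 days. VCD_Vehicle, VCD_E2 (estradiol, 1 µg per animal per day for 1 week) and VCD_E2_P4 (the same with progesterone, 1 mg per animal per day) had no polybrominated diphenyl ethers (PBDEs) in the diet, which for these groups contained DMSO. VCD_Low_PBDE, VCD_Low_E2 and VCD_Low_E2_P4 ate a mixture of 3 PBDE congeners for 20 weeks from 100 days after the start of VCD, with PBDE-47 at 0.05 mg/kg per day. VCD_High_PBDE, VCD_High_PBDE_E2 and VCD_High_PBDE_E2_P4 ate the mixture for 1 week with PBDE-47 at 1 mg/kg per day, so the dose of the mixture and the time it was eaten cannot be told apart. Hormones were given in the final week, at the same doses in all 3 diets, and sesame oil was the vehicle. VCD_E2_ICI received estradiol and, once at its onset, 5 mg of ICI, a blocker of estrogen receptors, and VCD_Vehicle_NormEnv was a further vehicle group whose environment the labels do not describe. How many glands or animals entered each library is not given in the sources used here. No group had more than 1 library, so p-values do not measure spread between replicates. The spread behind them is the departure of libraries from additive effects of hormone and PBDE, which includes any interaction of these.

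Mammary fibroblasts surround the ducts and fill the fat pad, where they make collagen, proteoglycans and signals to the epithelium. Fibroblasts with Dpp4 and Pi16 are known from many organs as a progenitor-like state of the outer connective tissue, and fibroblasts with Fabp4, Col15a1 and lipid-handling genes lie closer to the adipocyte lineage. Some adult mammary fibroblasts express estrogen receptor alpha. S100a4, a calcium-binding protein of motile and mesenchymal cells, and Sfrp4, a secreted inhibitor of Wnt signalling, were proposed as further markers of the cells described here. The proposal came from earlier results of these same data, so high levels of both are no independent support.

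Library size ranged from 41737881 to 109224969 UMIs, and the Adamts8/Ccdc3 cells had a median of 17568 UMIs against 16852 in all fibroblasts. The VCD_Low_E2_P4 library stood apart, since it gave 90 of the 295 cells and 25 of the 34 under 5000 UMIs. The share, the summed levels by marker and Pi16 UMIs and the main counts of calls are also given without it. A doublet caller marked 25 of the 295 cells. Without marked cells 270 of the 295 and 32561 of the 33709 fibroblasts remained. Marked cells were thus a larger part of the 295, whose share of fibroblasts went from 0.875 to 0.829%. Of 57499 distinct cell barcodes, 740 occurred in more than 1 library. Among the 295 cells 0 barcodes were held by more than 1 cell, and how many of the 295 carried one of the 740 was not counted.

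Ccdc3 chose most of the cells and Adamts8 few. Ccdc3 UMIs were present in 270 of the 295 cells (91.5%) and Adamts8 UMIs in 66 (22.4%). Only 41 cells (13.9%) held both, 229 (77.6%) held Ccdc3 alone and 25 (8.47%) held Adamts8 alone. Ccdc3 was spread over the cells, with a median of 3 UMIs, a highest value of 50 and 19.1% of its 1882 UMIs in the 10 richest cells. Adamts8 was concentrated instead. The 10 richest cells held 83.9% of its 1728 UMIs, 1 cell held 451 of them, and 74.9% came from VCD_Low_E2_P4. Free RNA in the droplets was measured in 5914 immune cells, which should lack both genes (median 7988 UMIs per cell). Adamts8 UMIs occurred in 0.423% and Ccdc3 UMIs in 0.457% of them, against 1.92% and 8.91% of the other 33414 fibroblasts. By library the immune rate of Adamts8 ran from 0 to 1.13%. In VCD_Low_E2_P4, which gave 46 of the 66 cells with Adamts8, it was 0.911% against 2.57% of the other fibroblasts. In VCD_Low_E2 it was 1.13% against 2.25%. These rates were not matched for depth.

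Both further markers were higher in the Adamts8/Ccdc3 cells than in the other fibroblasts of the same library in 12 of 12 libraries. S100a4 lay between 191 and 1716 CPM (UMIs of the gene scaled to a fixed total over the summed cells of a library) with a median of 1000.4 over libraries, against a median of 129.7 in other fibroblasts, 60.7 in Pi16-high and 159 in Fabp4-high fibroblasts. Sfrp4 lay between 951 and 4529.8 CPM with a median of 1746, against 385, 612 and 20.2. These are summed levels, to which few cells gave much. In VCD_High_PBDE_E2, which had the 4529.8 CPM, 1 of 11 cells held 606 of the 931 Sfrp4 UMIs. The median cell with Ccdc3 alone had 149 CPM of S100a4 and 625 CPM of Sfrp4. Pi16-high fibroblasts here are the 10788 cells with at least 20 Pi16 UMIs and Fabp4-high fibroblasts the 5960 cells with at least 10 Fabp4 UMIs, both without Tnc, under the Gdf10 limit and under the limit of the other class.

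**Figure D1:**
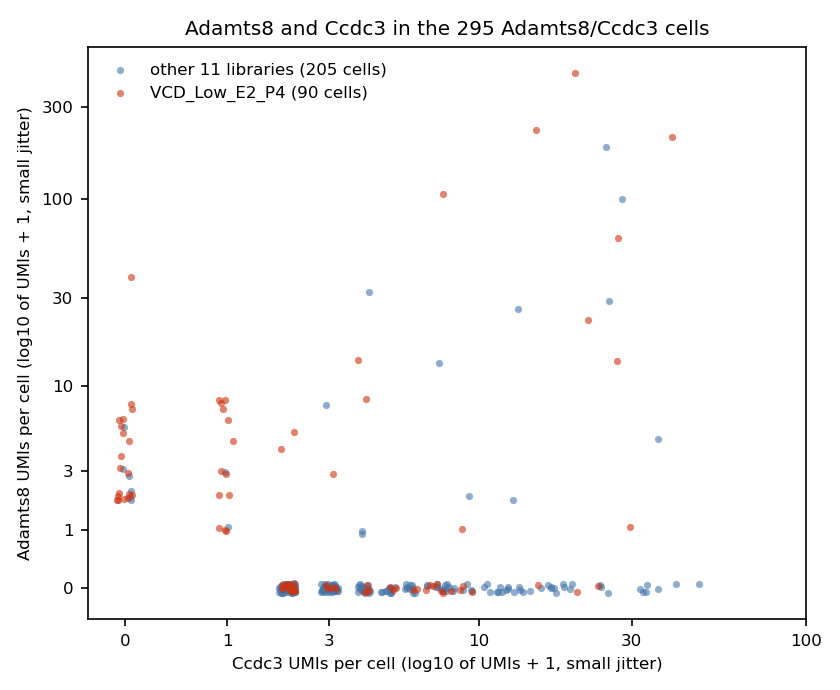
Adamts8 UMIs (vertical axis) against Ccdc3 UMIs (horizontal axis) in each of the 295 cells, both as log10 of UMIs plus 1 with a small jitter, with the 90 cells of VCD_Low_E2_P4 in red and the cells of the other 11 libraries in blue. The 229 cells with Ccdc3 alone lie along the bottom, and the 25 cells with Adamts8 alone, 19 of them red, along the left edge.

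The label "intermediate" was held against the genes that separate Pi16-high from Fabp4-high fibroblasts by at least 4-fold in each of the 12 libraries, without the genes of the rule. Where Pi16-high fibroblasts are placed at 0 and Fabp4-high at 1 on a log2 scale, the Adamts8/Ccdc3 cells had a median place of 0.237 over the 55 genes higher in Fabp4-high cells (0.0936 to 0.450 over libraries) and 0.262 over the 94 genes higher in Pi16-high cells (0.114 to 0.388). Fibroblasts that met the same exclusions but had fewer than 2 marker UMIs were at 0.740 and 0.612. The Adamts8/Ccdc3 cells lay between both classes for 48 of 55 and 82 of 94 genes, nearer to the Pi16-high class in the median. Lying between was not particular to them, since those other fibroblasts did so for 55 of 55 and 94 of 94 genes and fibroblasts with Gdf10 for 53 of 55 and 88 of 94.

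The threshold on marker UMIs cut through a gradient. The 85 cells with exactly 2 marker UMIs had 323 CPM of S100a4 and 1186 CPM of Sfrp4, the 210 cells with 3 or more had 1395 and 2737 CPM, the 331 cells just outside with 1 marker UMI had 308 and 533 CPM, and the 8037 cells with 0 had 182 and 195 CPM. Without VCD_Low_E2_P4 the cells with exactly 2 marker UMIs had 373 and 1412 CPM and those with 3 or more 1281 and 2485 CPM. On the Pi16 limit, the 33 cells with 15 to 19 Pi16 UMIs had 207 CPM of S100a4 and 580.4 CPM of Sfrp4, and the 29 cells excluded by Pi16 alone at 20 to 24 UMIs had 246 and 952 CPM. Pi16 was the exclusion that removed most marker-bearing cells, 678 by itself, followed by Cilp with 150, Gdf10 with 96, Tnc with 26, Fabp4 with 21 and the pair of Pgr and Greb1 with 4.

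The share of Adamts8/Ccdc3 cells among fibroblasts was between 0.403 and 1.65% in every library (exact binomial intervals cover counting error only). It was 0.749% in VCD_Vehicle (22 of 2936 cells), 0.606% in VCD_E2 (15 of 2475) and 0.681% in VCD_E2_P4 (20 of 2935), and these intervals overlapped. The share was 0.836% in VCD_Low_PBDE (30 cells), 1.17% in VCD_Low_E2 (32) and 1.65% in VCD_Low_E2_P4 (90, interval 1.33 to 2.02%). It was 0.646% in VCD_High_PBDE (16), 0.541% in VCD_High_PBDE_E2 (11) and 0.535% in VCD_High_PBDE_E2_P4 (8). Intact held 0.483% (13), VCD_Vehicle_NormEnv 1.04% (30) and VCD_E2_ICI 0.403% (8). When the rule was applied to cells thinned to 5000 UMIs each, which left out 2261 shallower fibroblasts, 263 of 31448 cells (0.836%) were selected. VCD_Low_E2_P4 then held 1.18% and VCD_Low_PBDE was highest at 1.31%. The UMI limits were not scaled down, so thinning loosened the exclusions and tightened the marker limit. The thinned shares therefore count a partly different set of cells and are no check of depth alone. With at least 2 Ccdc3 UMIs asked for, VCD_Low_E2_P4 held 1.06%, VCD_Low_E2 1.09% and VCD_Vehicle_NormEnv 1.04%, an alternative chosen after seeing the data. Without VCD_Low_E2_P4 the pooled share was 0.726% (205 of 28239 cells, interval 0.630 to 0.832%). With 1 library per group the shares were not tested between groups.

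**Figure D2:**
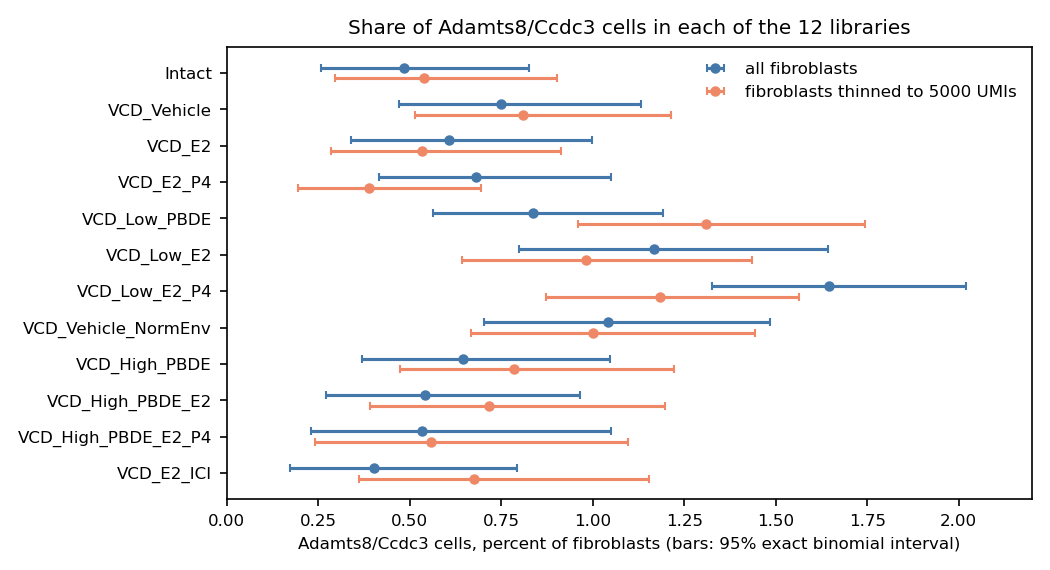
Percent of fibroblasts that met the rule (horizontal axis) in each of the 12 libraries, with exact 95% binomial intervals as bars, on all UMIs (blue) and after thinning each cell to 5000 UMIs (orange). VCD_Low_E2_P4 is highest at 1.65% on all UMIs, and VCD_Low_PBDE is highest at 1.31% after thinning. The UMI limits of the rule were the same for both, so the sets of cells differ.

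The cells with both markers and the cells with Ccdc3 alone differed in level for many genes. In the 41 cells with both, S100a4 was at 3242 CPM, Sfrp4 at 5331 CPM, Pthlh (parathyroid hormone-like hormone, a secreted signal of breast and bone) at 391 CPM, Aqp1 (a water channel) at 352 CPM, Ptn (pleiotrophin, a heparin-binding growth factor) at 483 CPM and the stress-response gene Nupr1 at 3448 CPM. In the 229 cells with Ccdc3 alone, S100a4 was at 816, Sfrp4 at 1925, Pthlh at 56.8, Aqp1 at 52.9, Ptn at 82.5 and Nupr1 at 524 CPM. These are summed levels, and the median cell was lower, at 149 CPM of S100a4 and 625 CPM of Sfrp4 with Ccdc3 alone and at 1817 and 1915 CPM with both. Dpp4 went the other way, at 158 CPM in cells with both and 358 CPM in cells with Ccdc3 alone, and Ly6c1 with it at 416 and 1222 CPM. The 25 cells with Adamts8 alone had a median of 4531 UMIs, 19 of them came from VCD_Low_E2_P4, and their Col15a1 was at 739 CPM against 146 CPM in cells with Ccdc3 alone. Of the 41 cells with both, 27 came from VCD_Low_E2_P4, so class and library move together here. Without that library S100a4 was at 3329 CPM in the 14 cells with both and at 886 CPM in the 185 cells with Ccdc3 alone, Sfrp4 at 4963 and 2038 CPM and Dpp4 at 149 and 358 CPM. Markers of other cell types moved with this split. The 10 endothelial genes summed to 220.0 CPM in cells with both and 28.3 CPM in cells with Ccdc3 alone, with 154 of the 163 UMIs in the former from Plvap, and the 8 mesothelial genes to 185 and 76.9 CPM. Msln, mesothelin, was at 132 and 0 CPM, and the part of these genes in the difference was not tested. Sfrp5, a relative of Sfrp4, was present in 8 cells only, and 2 of these held 598 of its 673 UMIs.

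Pi16, which the rule limits to fewer than 20 UMIs, was also read in bins. Of the 295 cells, 62 had 0 Pi16 UMIs, 93 had 1 to 4 and 140 had 5 to 19. From the first to the last of these bins S100a4 was at 2127, 1660 and 444 CPM, Sfrp4 at 3618, 3668 and 1046 CPM, and Aqp1 at 207, 147 and 17.6 CPM. Without VCD_Low_E2_P4 S100a4 was at 2523, 1515 and 409.6 CPM and Sfrp4 at 4064, 3843 and 798 CPM. The endothelial genes summed to 125, 80.0 and 10.8 CPM over these bins and the macrophage genes to 36.6, 31.1 and 172 CPM, with 412 of the 477 macrophage UMIs of the last bin in 1 cell. The mesothelial genes summed to 184, 40.5 and 89.3 CPM and the epithelial genes to 110, 21.6 and 88.2 CPM. The part of these genes was not tested. Smpd3, neutral sphingomyelinase 2 and a gene of the Dpp4/Pi16 class, ran the opposite way at 8.62, 32.6 and 183 CPM, as did Anxa3 at 210.1, 317 and 915 CPM. Across the 295 cells S100a4 and Sfrp4 had a Spearman correlation of 0.46 and Pthlh and Aqp1 of 0.55, given as a description since the cells share libraries and differ in depth.

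Against the other fibroblasts of their library, 3036 genes had at least 50 CPM in either class, and 195 of them (6.42%) were higher and 143 (4.71%) lower in 12 of 12 libraries. Among the first 15 genes by the smallest ratio over libraries, Cd109, a surface antigen that restrains TGF-beta signalling, had a median of 117 CPM against 31.7, Cd44, the hyaluronan receptor, 337 against 103, and Cdh13, a membrane-anchored cadherin, 135 against 29.6. Cav1, the main protein of caveolae, had 272 against 63.9, and the cytoskeletal genes Pdlim4 and Tmsb4x 247 against 60.0 and 6155 against 3722. The others of these 15 were Sfrp4, Epdr1, Dclk1, Gas7, Crip2, Pptc7, Mpp6, Adam10 and Ccdc109b. Gas7, Mpp6 and Ccdc109b were above Pi16-high fibroblasts in 10, 7 and 8 of 12 libraries and the other genes of the 15 in 12 of 12. Pthlh, which was not among them, was also higher in 12 of 12 libraries, at 97.2 against 4.08 CPM, as was Fn1, fibronectin, at 5165 against 2434 CPM. Pthlh was uneven over cells and near the floor in places. It was present in 27.1% of the cells with Ccdc3 alone and 65.9% of those with both markers. VCD_High_PBDE_E2_P4 held 1 Pthlh UMI, while 1 cell of VCD_Low_E2_P4 held 63.

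Several genes that were lower had their highest level in Fabp4-high fibroblasts, with Sparcl1 at 2101, Cxcl14 at 1032 and Smoc2 at 723 CPM there. Smoc2, a secreted calcium-binding matrix protein, was at 68.6 CPM against 404 in other fibroblasts, Sparcl1 at 169 against 867, the chemokine Cxcl14 at 41.2 against 419.8 and Icam1, a leukocyte adhesion molecule, at 73.5 against 192, each lower in 12 of 12 libraries. F3, tissue factor and a marker of the Gdf10 class, was at 31.8 against 99.2 CPM, and Jun, an immediate early gene that responds to tissue dissociation, at 745 against 2089 CPM. Ndufa4l2, Hpgd, Mmp3 and Gpx3 were also lower in 12 of 12 libraries. Low levels of several of these genes were shared with Pi16-high fibroblasts. Their medians were 38.4 CPM of Sparcl1, 22.9 of Cxcl14, 59.5 of Icam1, 16.5 of F3 and 261 of Mmp3, below those of the Adamts8/Ccdc3 cells. Smoc2 at 120, Jun at 815 and Gpx3 at 2166 CPM were above them. By the smallest ratio over libraries the 10 lowest were Cxcl14, Smoc2, Mgp, Igfbp3, Sparcl1, Hbb-bs, F3, Cxcl13, Hba-a1 and Il33. Of these, Mgp, Igfbp3, Cxcl13 and the hemoglobin genes Hbb-bs and Hba-a1, which mark red blood cells, were not lower in every library.

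**Figure D3:**
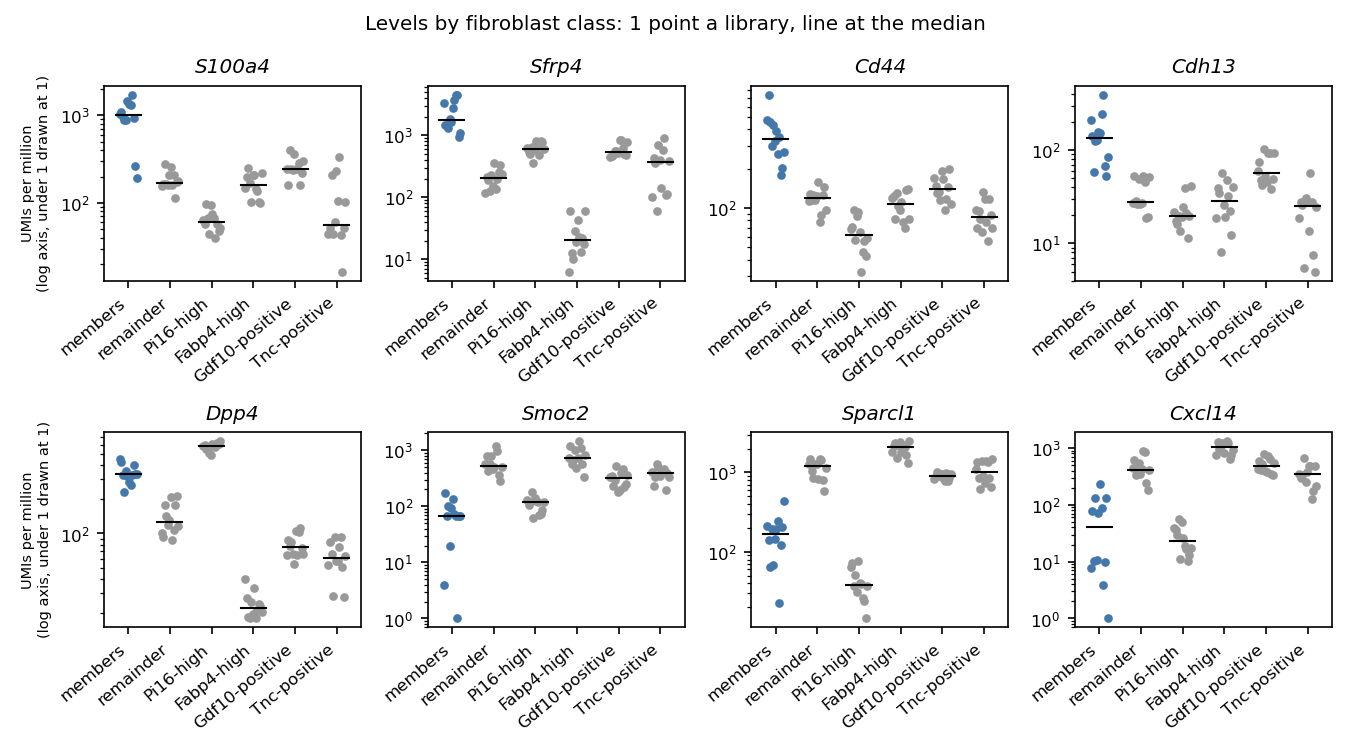
Levels of 8 genes in CPM (log axes, values under 1 drawn at 1) in the Adamts8/Ccdc3 cells (members, blue) and 5 other fibroblast classes (grey), 1 point per library and a line at the median. S100a4 and Sfrp4 have their highest median in the Adamts8/Ccdc3 cells, and Dpp4, Sparcl1 and Cxcl14 have medians between those of the Pi16-high and Fabp4-high fibroblasts.

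Hbb-bs reached 2984 CPM in VCD_Vehicle_NormEnv and 1886 CPM in VCD_Low_E2, against 265.9 and 359 CPM in the other fibroblasts of these libraries.

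Gene lists were summed per library to place the cells among fibroblasts. The 12 genes of the Dpp4/Pi16 class summed to a median of 4443 CPM in the Adamts8/Ccdc3 cells, 9409 in Pi16-high and 1098 in Fabp4-high fibroblasts, and for 12 of these 12 genes the cells lay between both classes. The 12 genes of the Fabp4/Col15a1 class summed to 2600.0, 1435 and 14677 CPM. The 19 secreted Wnt modulators summed to 3305 CPM against 1192 in other fibroblasts and the 15 genes of the S100 family to 15316 against 10799.9 CPM (the S100 list includes S100a4, and the Wnt list Sfrp4). The general fibroblast list of 12 genes, with Pdgfra, Dcn and Lum, was at 25604 CPM against 28259, 1210 CPM in immune cells. The 12 steroid receptor and coregulator genes summed to 728 against 783 CPM, and Esr1, estrogen receptor alpha, was at 47.6 against 58.8 CPM.

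Genes of other cell types were summed in the same way. The 10 macrophage genes summed to a median of 19.8 CPM (10.7 to 3172 over libraries) against 29.1 (17.4 to 94.4) in other fibroblasts, with the value of 3172 CPM in VCD_E2_ICI, where 1 of 8 cells held 412 of these UMIs, and at most 54.0 CPM in the other 11 libraries. The 10 endothelial genes summed to 2.13 to 126 CPM against 25.9 to 44.3 in other fibroblasts, and the 9 lymphocyte genes to 0 to 21.2 CPM. The 10 epithelial genes summed to 3.81 to 140.2 CPM against 36.4 to 71.6 in other fibroblasts. Cd3e, Cldn5, Tie1, Vwf, Krt5, Adipoq and Cidec had 0 UMIs in all 295 cells. Other genes of these lists were present, and Plvap held 232 of the 298 endothelial UMIs. Krt19, in the epithelial and the mesothelial list, held 356 of the 388 epithelial and of the 496 mesothelial UMIs. The 8 mesothelial genes summed to 80.1 CPM (30.2 to 175) against 43.9 in other fibroblasts, with 91.3 in Pi16-high cells, and Lrrn4 and Upk1b were at 0. The part of these lists in the results was not tested.

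The response to estradiol was fitted over the 9 libraries in which every hormone state (none, E2, E2 with P4) was present at every PBDE level (none, low, high), with summed counts of the Adamts8/Ccdc3 cells. The 3 libraries without hormone held 68 cells (16 to 30 per library) and the 6 with estradiol 176 cells (8 to 90). With estradiol, Cthrc1, Spon1 and several collagen and collagen-processing genes rose, and Smpd3, Cd55, C3 and Bmp2 fell. Of 6820 genes tested, 62 rose (0.909%) and 47 fell (0.689%) at an adjusted p under 0.05 in edgeR's quasi-likelihood test. DESeq2 called 66 higher and 36 lower, and an edgeR fit with robust estimates of the spread 73 and 68. All 3 fits called 44 of the genes that rose and 25 of those that fell. The edgeR counts were 12 and 7 with at least 3 marker UMIs, 19 and 9 in cells of 5000 to 30000 UMIs and 24 and 17 with E2 alone. Without VCD_Low_E2_P4 they were 47 and 30. They were 15 and 6 without VCD_Vehicle, 19 and 14 without VCD_Low_PBDE, 21 and 11 without VCD_Low_E2, 25 and 13 without VCD_E2 and 30 and 14 without VCD_E2_P4. Cells with Adamts8 UMIs were 3.33 to 12.5% of the cells in libraries without hormone and 10.0 to 51.1% in those with it, with overlap, and the part of this share in the results was not tested. In sums over cells, fewer cells of one kind and less RNA per cell cannot be told apart.

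Values by library are given below in the order no, low and high PBDE, first for E2 and then for E2 with P4. Libraries with and without hormone are those of the fit, so overlap leaves out Intact, VCD_Vehicle_NormEnv and VCD_E2_ICI. Overlap was read in genes already called, and the share of all tested genes without overlap was not counted. Cthrc1, a secreted collagen triple-helix repeat protein of active fibroblasts (chr15:39076932-39087121 on GRCm38, plus strand), was at 8.51, 8.89 and 15.2 CPM without hormone. It was at 403, 53.4 and 185 CPM with E2 and at 209.7, 92.7 and 164 CPM with E2 and P4. Libraries with and without hormone did not overlap, and the log2 fold change was 4.04 ± 0.44 (SE; adjusted p = 0.00095 in edgeR). Spon1, F-spondin, a matrix glycoprotein (chr7:113765998-114043370), was at 14.9, 7.11 and 7.61 CPM without hormone, at 127, 98.5 and 92.4 CPM with E2 and at 189, 169 and 217 CPM with E2 and P4. Again no library with hormone overlapped one without (3.81 ± 0.28, adjusted p = 0.000103 in edgeR). The call on Spon1 held in 21 of 21 alternatives and that on Cthrc1 in 20 of 21.

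Mdk, midkine, a heparin-binding growth factor, had 0 UMIs in the 3 libraries without hormone and 5.01 to 79.3 CPM in the 6 with it. Against a limit of 3 counts over the pooled libraries its pooled level was 15.5-fold higher (adjusted p = 0.019 in edgeR, and called in all 3 fits). This figure leaves out the spread over libraries and is no lower bound. Ifit3b, an interferon-induced gene to which DESeq2 gave no adjusted p, also had 0 UMIs without hormone and 4.83 to 33.4 CPM with it. Against the same limit it was 6.11-fold higher (adjusted p = 0.049 in edgeR). The lowest values of Mdk and Ifit3b with hormone were near the floor and rest on few UMIs. Ggt5, an enzyme of leukotriene and glutathione metabolism, was at 12.8, 10.7 and 3.81 CPM without hormone and at 45.1 to 116 CPM with it, without overlap (2.69 ± 0.36, adjusted p = 0.0032 in edgeR). Peg3, an imprinted zinc-finger gene, Nxn, nucleoredoxin, and Pear1, a surface receptor, rose without overlap, by 3.03 and 3.59 on the log2 scale for Peg3 and Pear1. H19, an imprinted non-coding RNA, rose by 4.90 on the log2 scale but overlapped, since VCD_High_PBDE_E2 had 0 UMIs. DESeq2 gave no adjusted p for Pear1 and H19.

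Jchain, the joining chain of antibodies made by plasma cells, rose by 4.88 on the log2 scale (adjusted p = 0.016 in edgeR) but not in DESeq2 (adjusted p = 0.87) or in the robust fit (adjusted p = 0.10). It was at 1264 CPM in VCD_Low_E2 and 229.9 CPM in VCD_Low_E2_P4 and at 1.89 to 25 CPM in the other 7 libraries of the layout. The other fibroblasts of VCD_Low_E2 and VCD_Low_E2_P4 had 22.2 and 200.8 CPM and their immune cells 5076 and 11932 CPM.

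Among the genes that fell, Smpd3 (chr8:106252548-106337988) was at 217, 270.3 and 232 CPM without hormone. With E2 it was at 52.2, 36.7 and 92.4 CPM and with E2 and P4 at 24.6, 46.7 and 29.0 CPM. These lay well below each of the 3 libraries of the fit without hormone (−2.40 ± 0.24, adjusted p = 0.00076 in edgeR, called in 21 of 21 alternatives). Bmp2, a bone morphogenetic protein (chr2:133552159-133562885), was at 249, 183 and 167 CPM without hormone, at 93.9, 40.1 and 53.5 CPM with E2 and at 71.8, 59.1 and 38.6 CPM with E2 and P4. These did not overlap either (−1.73 ± 0.19, adjusted p = 0.0010 in edgeR). Mrgprg, a Mas-related G protein-coupled receptor, was at 65.9, 128 and 15.2 CPM without hormone and had 0 UMIs in the 6 libraries with it. Against a limit of 3 counts over the pooled libraries it was 93.4-fold lower, a figure that leaves out the spread over libraries. Its adjusted p was 0.00093 in edgeR, and it was called in the robust fit, while DESeq2 gave no adjusted p.

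Bmp3, a further member of the BMP family, Pou2f2, a POU-domain transcription factor, and Arhgef28, a guanine nucleotide exchange factor, fell without overlap, with log2 fold changes of −2.18, −3.22 and −1.79. Of these Arhgef28 was called in all 3 fits, and DESeq2 gave no adjusted p for Bmp3 and Pou2f2. Daglb, which makes the endocannabinoid 2-arachidonoylglycerol, Krtdap, a secreted epithelial differentiation protein, and the non-coding gene Gm12840 fell by 1.92, 2.07 and 2.30 on the log2 scale, each with some overlap between libraries. In Gm12840 the overlap came from VCD_High_PBDE_E2 at 307 CPM against 262 CPM in VCD_Vehicle.

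**Figure D4:**
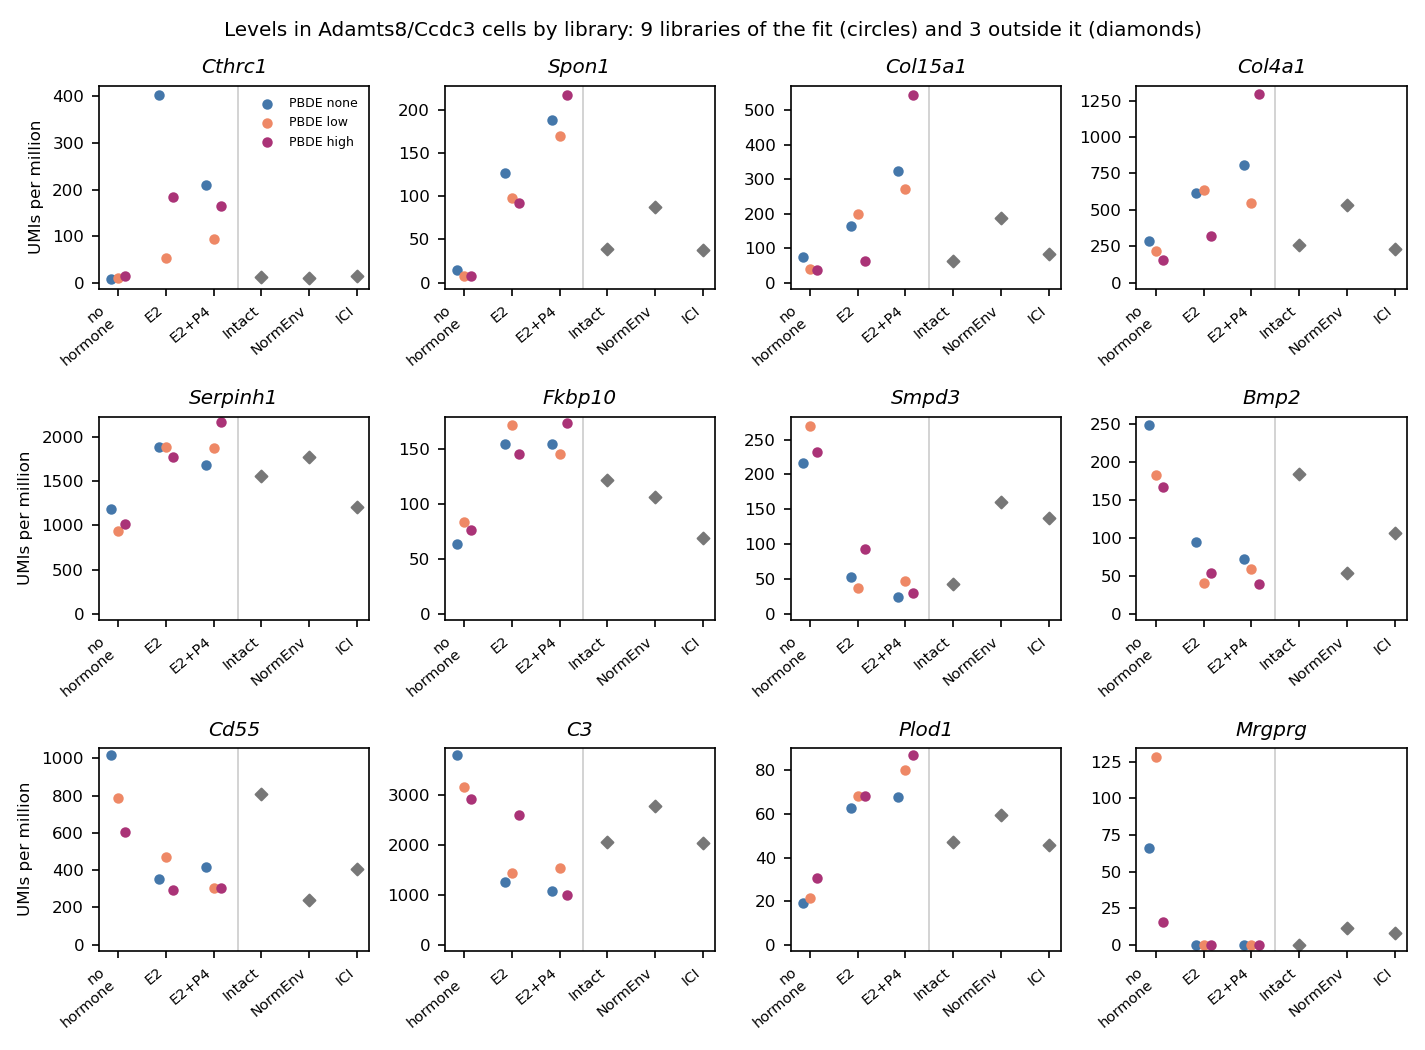
CPM (vertical axes, from 0) of 12 genes in the Adamts8/Ccdc3 cells, with circles for the 9 libraries of the fit by hormone and coloured by PBDE diet, and diamonds for Intact, VCD_Vehicle_NormEnv and VCD_E2_ICI. The 12 genes were picked from called genes, and only Col15a1 overlaps between the libraries of the fit with and without hormone. The diamonds are left out of this comparison.

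Of 19 collagen genes tested, 6 rose, 0 fell and 16 had a positive fold change, with a median of 0.73 against −0.0065 over all 6820 genes. Col5a2, a fibrillar collagen, was at 540.3, 571 and 491 CPM without hormone and at 866 to 2196 CPM with it (1.28 ± 0.24, adjusted p = 0.023 in edgeR). Col6a3, of the beaded microfibrils, was at 414 to 647 CPM without and at 822 to 1569 CPM with hormone (1.06 ± 0.22, adjusted p = 0.037 in edgeR). Col18a1, Col4a1 and Col4a2, which belong to basement membranes, and Col15a1 rose by 1.57, 1.65, 1.85 and 2.21 on the log2 scale, and of these only Col15a1 overlapped between libraries. Col4a1, Col4a2 and Col15a1 were not called in the robust fit. The collagen count was 0 without VCD_Vehicle, VCD_E2 or VCD_Low_PBDE, 1 without VCD_Low_E2, and 0 with at least 3 marker UMIs or at least 2 Ccdc3 UMIs, while the median stayed between 0.63 and 1.16 over the alternatives.

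Of 40 genes of protein folding and collagen processing in the secretory pathway, 5 rose and 0 fell (median 0.20, 29 positive). The count was 0 without VCD_Vehicle or VCD_Low_PBDE and 1 without VCD_Low_E2, in cells of 5000 to 30000 UMIs, with at least 3 marker UMIs or with E2 alone, while the median was 0.12 to 0.27 over the alternatives. The 5 genes were Plod1, a lysyl hydroxylase of collagen, Serpinh1, the collagen chaperone HSP47, Fkbp10, a prolyl isomerase, P3h1, a prolyl hydroxylase that DESeq2 did not call, and Kdelr3, a retrieval receptor. Serpinh1 was at 932 to 1191 CPM without hormone and at 1689 to 2167 CPM with it, without overlap (0.87 ± 0.15, adjusted p = 0.018 in edgeR). Plod1 was at 19.1, 21.3 and 30.4 CPM without hormone and at 62.6 to 86.9 CPM with it (1.67 ± 0.24, adjusted p = 0.0054 in edgeR). Of 20 elastic-fibre genes, 2 rose and 0 fell, namely Mfap2, a microfibril protein (1.75 ± 0.29), and Emilin1, an elastin-interface protein (1.44 ± 0.25), both without overlap. Lum, lumican, was the 1 gene called of 9 leucine-rich proteoglycans and rose from 686 to 1077 CPM to 1442 to 2863 CPM (1.16 ± 0.16, adjusted p = 0.0036 in edgeR).

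Lists that mark fibroblast classes were counted in the same way. Of 12 genes of the Dpp4/Pi16 class, 3 fell, 0 rose and 0 had a positive fold change (median −0.44). Besides Smpd3 these were Cd55, which protects cells from complement, at 1017, 786 and 605 CPM without hormone and at 292 to 469 CPM with it (−1.14 ± 0.18, adjusted p = 0.0087 in edgeR), and Limch1 (−1.50 ± 0.30), which DESeq2 did not call. Of 10 genes tested of the Fabp4/Col15a1 class, 3 rose (Col15a1, Col6a3 and Col4a1), 0 fell and 9 were positive (median 0.98). Of 10 genes tested of the Tnc/Postn class, 1 rose (Mdk), 0 fell and 8 were positive, with a median of 1.11. The 8 genes of the Gdf10/F3 class held 0 calls and 5 positive values (median 0.51), and the 3 tested of the Cilp/Myoc class 0 calls and 0 positive values (median −0.38). These counts moved over the alternatives. The count of the Dpp4/Pi16 class ran from 1 to 6 lower over the alternatives (median −0.85 to −0.25). That of the Fabp4/Col15a1 class was 0 without VCD_E2 or VCD_Low_PBDE and 0 with at least 3 marker UMIs or at least 2 Ccdc3 UMIs, with a median of 0.39 to 1.43 over the alternatives. The count of the Tnc/Postn class was 0 in 8 of 21 alternatives, namely without VCD_Vehicle, VCD_E2 or VCD_E2_P4, with E2 alone, in cells of 5000 to 30000 UMIs, with at least 3 marker UMIs, with at least 2 Ccdc3 UMIs and with 5 to 19 Pi16 UMIs, and the median ran from 0.46 to 1.61. Without VCD_Low_E2_P4 the counts were 5 higher for collagens, 4 higher for protein folding, 2 lower for the Dpp4/Pi16 class, 2 higher for the Fabp4/Col15a1 class and 1 higher for the Tnc/Postn class. Cells with 5 to 19 Pi16 UMIs were 72.7, 63.3 and 43.8% of the cells without hormone at no, low and high PBDE. They were 66.7, 34.4 and 54.5% with E2 and 50, 35.6 and 75% with E2 and P4, so the libraries overlapped, and at high PBDE the share was higher with hormone. The summed level of Pi16, a gene of the rule, did not overlap. It was at 342.5, 439 and 434 CPM without hormone, 209, 229 and 316 CPM with E2 and 232, 269 and 319 CPM with E2 and P4. The rule capped Pi16 at the same UMIs whatever the depth of a cell. Median depth was 17235.5 UMIs without hormone and 17920.5 with it (21807.5 without VCD_Low_E2_P4). The part of this share, of Pi16 and of depth in the results was not tested.

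Further lists held few calls. Of 34 interferon-induced genes 2 rose, Lgals3bp and Ly6e, and 31 were positive (median 0.79). That count was 0 without VCD_Low_PBDE or with at least 3 marker UMIs, 1 without any 1 of 6 other libraries, 5 without VCD_High_PBDE_E2_P4 or in DESeq2 and 15 without a filter on low counts, with a median of 0.60 to 0.88. Of 16 genes of cholesterol synthesis and uptake 0 were positive (median −0.88, and −1.04 to −0.21 over the alternatives). C3, the central complement component, was at 2923 to 3799 CPM without hormone and at 989.6 to 2598 CPM with it (−1.18 ± 0.23, adjusted p = 0.026 in edgeR), and it was the 1 gene called of 12 estrogen receptor targets tested. Of 12 glucocorticoid and progesterone target genes, Angptl4, a secreted inhibitor of lipoprotein lipase, rose (1.99 ± 0.27) and Mt2, a metallothionein, fell from 1393 to 2171 CPM to 628 to 1124 CPM (adjusted p = 0.037 in edgeR). Angptl4 and Bmp2 were also among the 24 growth factor genes tested. Myl9, a myosin light chain, was the 1 call of 5 contractile genes and was not called in DESeq2. The lists of Wnt modulators, ADAMTS and S100 families, chemokines, the IGF axis, steroid receptors, immediate early and heat shock genes, cell cycle and adipocyte lineage held 0 calls.

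The markers of the label themselves did not pass the test. S100a4 was at 1085, 893 and 1716 CPM without hormone and at 266 to 1447 CPM with it, with overlap (−0.43 ± 0.37, adjusted p = 0.65 in edgeR). Sfrp4 was at 1468, 1869 and 4445 CPM without hormone and at 951 to 4529.8 CPM with it, with overlap (−0.19 ± 0.36, adjusted p = 0.87 in edgeR). Adamts8 and Ccdc3 belong to the rule and were not tested. Adamts8 was at 12.8, 5.34 and 1104 CPM in the libraries without hormone and at 73.0, 76.8, 19.5, 7.56, 944.5 and 14.5 CPM in those with it, and in VCD_High_PBDE its 290 UMIs came from 2 cells.

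Whether the response to estradiol differed from that of the neighbouring classes was tested as an interaction in the same libraries. Against Pi16-high fibroblasts, the fold change was higher in the Adamts8/Ccdc3 cells for 58 (0.447%) and lower for 102 (0.787%) of 12966 genes in edgeR. In this fit edgeR gave every gene the spread of the common trend, so a gene's own spread did not enter its test, and DESeq2 called 12 and 24. The robust fit also did so for the median gene. None of the fits let the spread differ between the small sums of the Adamts8/Ccdc3 cells and the large sums of the other class. Standard errors of differences can therefore be too small. For Smpd3 that of the difference was below that of the effect in the Adamts8/Ccdc3 cells alone. Called by edgeR, DESeq2 and the robust fit were 12 genes higher and 22 lower, and the examples are taken from these. The edgeR counts were 34 and 57 without VCD_Vehicle, 37 and 76 without VCD_High_PBDE and 54 and 114 without VCD_Low_E2_P4. Smpd3 fell in both classes, from a mean of 239.8 to 46.9 CPM in the Adamts8/Ccdc3 cells and from 691 to 374 CPM in Pi16-high fibroblasts, and the log2 fold changes differed by −1.51 ± 0.21 (adjusted p = 1.5e-09 in edgeR and 0.00064 in DESeq2). Cd55 fell from 803 to 356 CPM against 761 and 678 CPM (difference −0.98 ± 0.17, adjusted p = 0.011 in DESeq2). C3 fell from 3292 to 1480.2 CPM against 3748 and 2952 CPM (difference −0.81 ± 0.14, adjusted p = 0.035 in DESeq2).

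The label markers S100a4 and Sfrp4 were called lower by edgeR against Pi16-high fibroblasts (−0.99 ± 0.17 and −0.89 ± 0.15) but not by DESeq2 (adjusted p = 0.21 and 0.33) or the robust fit (adjusted p = 0.88 and 0.93).

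On the higher side, Mfap2 rose from 72.6 to 282 CPM against 169 and 222 CPM in Pi16-high fibroblasts (difference 1.35 ± 0.22, adjusted p = 0.010 in DESeq2). Kdelr3 went from 54.7 to 126 CPM against 47.4 and 53.0 CPM (difference 0.99 ± 0.24, adjusted p = 0.042 in DESeq2), and Serpinh1 from 1048 to 1883 CPM against 964 and 1185 CPM (difference 0.54 ± 0.15, adjusted p = 0.049 in DESeq2). Bgn, biglycan, went from 1145 to 1279 CPM in the Adamts8/Ccdc3 cells while it went from 148 to 409 CPM in Pi16-high fibroblasts (difference −1.11 ± 0.16, adjusted p = 6.6e-09 in DESeq2). Cholesterol genes were positive for 0 of 16 in the Adamts8/Ccdc3 cells and for 12 of 16 in Pi16-high fibroblasts, with medians of −0.88 and 0.11, a gap that was not tested as a list.

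Against Fabp4-high fibroblasts the fold change was higher for 76 (0.67%) and lower for 72 (0.634%) of 11351 genes in edgeR, with 38 and 46 in DESeq2 and 27 and 37 called by edgeR, DESeq2 and the robust fit. The edgeR counts were 38 and 35 without VCD_Low_PBDE, 126 and 124 without VCD_High_PBDE_E2_P4 and 54 and 57 without VCD_Low_E2_P4. Here too the spread of a gene was the same for small and large sums, so standard errors of differences can be too small. Of 23 immediate early genes, which respond to tissue dissociation, 8 differed higher and 3 lower in edgeR, among them Fos, Fosb, Jun, Egr1 and Ier2, and 1, Nr4a1, was called in all 3 fits, and the part of this list in the results was not tested. Col6a3 went from 531 to 1112 CPM in the Adamts8/Ccdc3 cells and from 2476 to 2299.9 CPM in Fabp4-high fibroblasts (difference 1.22 ± 0.19, adjusted p = 0.00079 in edgeR). Myl9 went from 10.8 to 40.4 CPM against 67.0 and 50.5 CPM (difference 2.19 ± 0.37, adjusted p = 0.0020 in edgeR). Serpinh1 and Plod1 differed by 0.75 ± 0.15 and 1.46 ± 0.27. Lower differences in edgeR, DESeq2 and the robust fit were found for Smpd3 (−2.20 ± 0.30), Cd55 (−1.34 ± 0.19), Efhd1 (−1.65 ± 0.25) and Wnt2 (−1.21 ± 0.22), 4 of the 12 genes of the Dpp4/Pi16 class, and edgeR also called Sema3c, the fifth of this list. Gfra2, a receptor for neurturin, was at 46.0 and 44.1 CPM in the Adamts8/Ccdc3 cells without and with hormone but at 2.30 and 42.2 CPM in Fabp4-high fibroblasts (difference −3.95 ± 0.41, adjusted p = 1.7e-05 in edgeR). Igfbp4, which binds insulin-like growth factors, was at 463 and 595 CPM against 121 and 481 CPM (difference −1.54 ± 0.21, adjusted p = 0.00037 in edgeR).

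**Figure D5:**
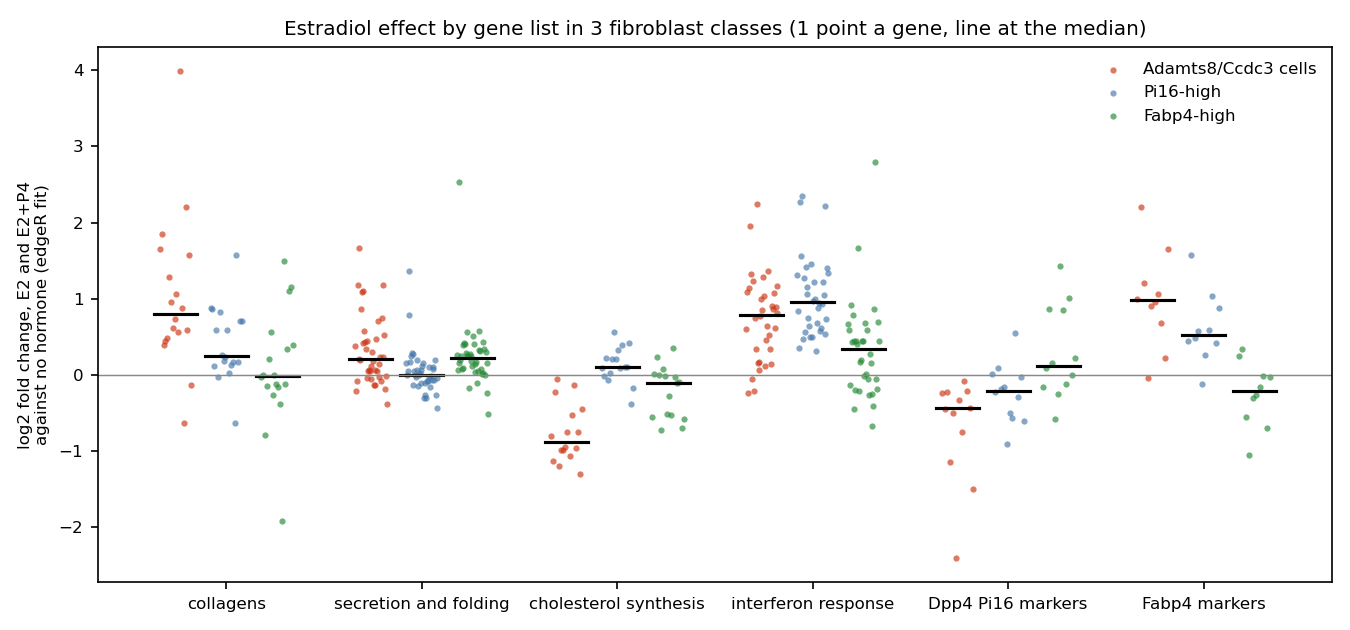
Log2 fold change with estradiol (vertical axis) of the genes of 6 lists in the Adamts8/Ccdc3 cells (red), Pi16-high (blue) and Fabp4-high fibroblasts (green), 1 point per gene tested in all 3 and a line at the median. The collagen medians are 0.81, 0.25 and −0.019 and the cholesterol medians −0.88, 0.11 and −0.10 in this order.

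Progesterone added to estradiol gave 0 genes higher (0%) and 0 lower (0%) of 6820 in edgeR, with 331 at an unadjusted p under 0.05, a smallest adjusted p of 0.056, and 1 higher and 1 lower in DESeq2. Without VCD_Low_E2_P4 edgeR called 2 higher and 1 lower. S100a4 and Sfrp4 had fold changes of −0.45 ± 0.42 (adjusted p = 0.99 in edgeR) and −0.35 ± 0.43 (adjusted p = 0.99 in edgeR).

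The low PBDE diet against none gave 1 gene higher (0.0147%), Jchain, and 0 lower (0%) of 6820, with 269 at an unadjusted p under 0.05. Its fold change of 5.29 ± 0.64 (adjusted p = 0.020 in edgeR) rested on VCD_Low_E2 and VCD_Low_E2_P4, whose values are given above, since VCD_Low_PBDE had 7.11 CPM. Of the 20 alternatives set for this effect 18 tested the gene and 7 called it. It was called neither without VCD_E2, VCD_E2_P4, VCD_Low_E2, VCD_Low_E2_P4 or VCD_High_PBDE_E2 nor in DESeq2 (adjusted p = 0.24) or the robust fit (adjusted p = 0.44), which called 1 other gene each.

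The high PBDE dose gave 0 genes higher (0%) and 1 lower (0.0147%) of 6820, with 543 at an unadjusted p under 0.05 and 8 higher and 5 lower in DESeq2. Without VCD_Low_E2_P4 edgeR called 2 higher and 3 lower. The gene was Ifit3, an interferon-induced antiviral protein. It was at 57.4, 115 and 113 CPM in VCD_Vehicle, VCD_E2 and VCD_E2_P4 and at 3.81, 24.3 and 9.65 CPM in VCD_High_PBDE, VCD_High_PBDE_E2 and VCD_High_PBDE_E2_P4, without overlap (−2.90 ± 0.38, adjusted p = 0.041 in edgeR and 0.0063 in DESeq2). The values with the high dose rest on few Ifit3 UMIs, since these sums held 262777, 205530 and 207154 UMIs in all. The call held in 9 of the 20 alternatives set for this effect and was lost when VCD_Vehicle, VCD_E2, VCD_E2_P4, VCD_Low_E2, VCD_High_PBDE_E2 or VCD_High_PBDE_E2_P4 was left out. Of 34 interferon-induced genes 1 fell and 3 had a positive fold change (median −0.82 against 0.010 over all genes). With the low PBDE diet 3 of the 34 were also positive (median −0.54), and both contrasts share the libraries without PBDE.

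Intact, VCD_Vehicle_NormEnv and VCD_E2_ICI had 1 library each and stayed out of the fit, so their values have no replicate check. The 62 genes raised by estradiol summed to 12041 to 14564 CPM in the libraries of the fit without hormone and to 24313 to 37832 CPM in those with it, as they were chosen to differ. They summed to 18484 CPM in Intact (exact Poisson interval 17960 to 19020), 25012 CPM in VCD_Vehicle_NormEnv and 15319 CPM in VCD_E2_ICI. VCD_Vehicle_NormEnv, which had no hormone, thus lay within the range of the libraries with it for these genes. The 47 lowered genes summed to 16657 to 17663 CPM without and 6462 to 10081 CPM with hormone, and to 11702, 10271 and 10179 CPM in these libraries. Gene by gene, 37, 21 and 35 of the 62 raised genes and 23, 16 and 21 of the 47 lowered genes were on the side of the libraries without hormone in Intact, VCD_Vehicle_NormEnv and VCD_E2_ICI. In VCD_E2_ICI, from 8 cells including the 1 with the macrophage UMIs given above, Cthrc1 was at 15.2 CPM and Spon1 at 38.1 CPM, and Smpd3 at 137 CPM. In Intact, from 13 cells, they were at 11.8, 39.3 and 43.2 CPM, and in VCD_Vehicle_NormEnv at 9.33, 87.7 and 161 CPM.

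Promoters of the genes called with estradiol were searched for hormone response elements in RefSeq sequences on GRCm38.p6, over 300 bases from 250 before to 50 after the start. Of the 109 genes, 76 had a promoter sequence, 43 raised and 33 lowered. The full estrogen response element (GGTCA, 3 bases, TGACC, on both strands) occurred in 0 of 43 and 0 of 33 against 0.0189% of the 5287 tested genes with a promoter and 0.0740% of 27025 genes in all, and the progesterone and glucocorticoid element (GNACA, 3 bases, TGTNC) in 1 of 43, Cpxm1, and 0 of 33 against 0.303% and 0.537%. The search says only whether these letters are in this window. The estrogen element was in 1 of the 5287 tested genes, so 0 in sets of 43 and 33 genes tells nothing about receptor action.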

How the data were processed

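Cells dissociated from mouse mammary glands were measured with the Chromium Single Cell 3′ v3 kit in 12 libraries, 1 per group. The authors deposited 1 matrix of whole-number UMI counts per library, with 27998 genes, and the submitters' processing notes name Cell Ranger 3.1.0 and the mm10 build. The sequencer is named differently in the labels and the methods.

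Cells with at least 500 genes, 1000 UMIs and at most 5% mitochondrial UMIs were kept. The cells, gene lists and tests were chosen with earlier results of these data known, so no count over a list is independent support. Counts were summed over the selected cells of each library. The 9 libraries with every hormone state at every PBDE level were fitted with hormone and PBDE as additive terms in edgeR 4.0.16 (TMM factors, filterByExpr, quasi-likelihood test, 4 residual degrees of freedom, Benjamini-Hochberg adjustment at 0.05, R 4.3.3). Estradiol effects are the mean of E2 and E2 with P4 against no hormone. Differences between fibroblast classes are the interaction of class and hormone with a term for each library. Named genes are the 10 raised and 10 lowered genes with the largest fold change among called genes with the same sign at each PBDE level, the 5 largest differences in each direction, the 15 highest and 10 lowest levels against other fibroblasts, the label markers and up to 4 genes per list. Some others were named after their values were seen, among them genes called in all 3 fits, Pthlh, Ptn, Nupr1, Fn1, Bgn, Gfra2 and Igfbp4. Genes of the rule were left out of counts. Results of some genes called with estradiol are not reported here.

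DESeq2 1.42.0, other scalings, filters and limits of the rule, and leaving out each library were alternatives, and Scrublet in scanpy 1.11.5 scored doublets, with cells kept in the main results. Scripts were tested on simulated counts. Levels in CPM used a pseudocount of 5 for ratios. Intervals cover counting error only. Coordinates are from the GENCODE M21 annotation of GRCm38. The Chromium reads cover 3′ ends, so levels were not compared between genes. Python 3.11.15, numpy 2.4.6, scipy 1.17.1, pandas 2.3.3 and matplotlib 3.10.9 were used.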

Additional observations from a re-analysis of the deposited data

Results flagged for a closer look

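The 5 largest differences of the estradiol response in each direction, by the interaction of fibroblast class and hormone in edgeR, drew attention in both comparisons. All 20 values are differences of log2 fold changes, Adamts8/Ccdc3 cells minus the other class.

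Against Pi16-high fibroblasts the response was higher for Mdk (10.5), Il1rl1, the receptor of interleukin 33 (9.92), Col8a1, a short-chain collagen (4.29), H19 (4.24) and Ackr4, a scavenging chemokine receptor (4.22). It was lower for Mrgprg (−9.51), Pmaip1, a BH3-only protein (−9.01), Ltbp2, a microfibril-associated protein (−7.63), the growth factor Fgf16 (−4.00) and Cbarp (−2.68). These genes were low in the Adamts8/Ccdc3 cells. Mean levels without and with hormone were 0 and 39.3 CPM for Il1rl1, 0.593 and 19.1 CPM for Col8a1, 13.8 and 0 CPM for Pmaip1 and 30.7 and 2.80 CPM for Ltbp2. The direction turned for Ackr4 without VCD_Low_E2_P4 (−1.08) and, with 5 to 19 Pi16 UMIs, for Col8a1 (−0.87) and Ltbp2 (1.18). Where 1 side was at 0 the size depends on the prior count and is no bound. DESeq2 gave an adjusted p for 1 of these 10, Mrgprg, and did not call it (adjusted p = 0.20).

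Against Fabp4-high fibroblasts the response was higher for Mdk (9.52), Ifit3b (9.19), Col8a1 (6.92), Mgp, matrix Gla protein (3.47), and Pear1 (3.26). It was lower for Ankrd1, a stretch-responsive ankyrin protein (−10.1), the histone gene Hist1h2ap (−6.56), Stra6, a retinol transporter (−4.92), Cbarp (−4.19) and Gfra2 (−3.95). Of these, Mdk, Stra6 and Gfra2 were called by edgeR, DESeq2 and the robust fit. Stra6 went from a mean of 60.3 to 24.7 CPM in the Adamts8/Ccdc3 cells and from 0.0404 to 0.856 CPM in Fabp4-high fibroblasts. Mgp went from 119 to 289 CPM and from 745 to 246 CPM, and DESeq2 did not call it (adjusted p = 0.12).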

How the results depend on the processing

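No paired analysis between groups was possible because the labels give no replicate numbers that groups share. The differences between fibroblast classes were paired within each library. Counts are given as higher and lower. For estradiol (62 and 47) they were 196 and 199 without a filter on low counts, 24 and 17 with E2 alone, 19 and 9 in cells of 5000 to 30000 UMIs, 12 and 7 with at least 3 marker UMIs and 45 and 30 without doublets, and leaving out 1 library gave 15 to 70 and 6 to 52. For progesterone (0 and 0) they were 1 and 1 in DESeq2 and 49 and 22 without a filter, with 1 higher without the Pgr and Greb1 exclusion, with at least 3 marker UMIs or with the study's negative selection, and 0 to 2 and 0 to 1 without 1 library. For low PBDE (1 and 0) they were 78 and 20 without a filter, with 2 higher at 3 marker UMIs, 0 higher by depth, negative selection or without doublets, and 0 to 4 and 0 to 0 without 1 library. For high PBDE (0 and 1) they were 8 and 5 in DESeq2 and 62 and 33 without a filter, with 0 lower by depth, at 3 marker UMIs, by negative selection or without doublets, and 0 to 6 and 0 to 3 without 1 library. For the difference from Pi16-high fibroblasts (58 and 102) they were 12 and 24 in DESeq2, 32 and 61 with E2 alone, 29 and 50 by depth, 22 and 67 at 3 marker UMIs, and 34 to 56 and 57 to 116 without 1 library. For that from Fabp4-high fibroblasts (76 and 72) they were 38 and 46 in DESeq2, 170 and 126 without a filter, 43 and 45 by depth, 25 and 40 at 3 marker UMIs, and 38 to 126 and 35 to 124 without 1 library. The pooled share of 0.875% was 0.760% by depth and 0.623% at 3 marker UMIs. The causes were not tested.

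3 alternatives to the tests were chosen after seeing the data, as were the share and summed levels without VCD_Low_E2_P4. With at least 2 Ccdc3 UMIs the counts were 24 and 15 for estradiol, 1 higher for progesterone, 0 higher for low PBDE, 2 and 3 for high PBDE and 36 higher for Pi16-high, and the share was 0.756%. With 5 to 19 Pi16 UMIs they were 23 and 30 for estradiol, 1 higher for progesterone, 0 higher for low PBDE, 2 higher for high PBDE and 20 and 66 for Pi16-high, and the share was 0.415%. The robust edgeR fit gave 3 lower for high PBDE. Of 912 values of 46 named results over 21 alternatives, 682 kept sign and side of the threshold, 218 lost the call and 12 changed sign. With 5 to 19 Pi16 UMIs the sign changed for the Pi16-high differences of Col8a1 (−0.87) and Ltbp2 (1.18), for Sfrp4 with estradiol (0.25) and progesterone (0.45) and for S100a4 with progesterone (1.93, adjusted p = 0.054 in edgeR). Leaving out 1 library gave −1.08 (without VCD_Low_E2_P4) to 10.1 for Ackr4 against Pi16-high, −0.93 to 0.22 (without VCD_High_PBDE) for S100a4 and −0.54 to 0.13 (without VCD_High_PBDE) for Sfrp4 with estradiol, and −0.96 to 0.067 for S100a4 and −1.01 to 0.31 for Sfrp4 with progesterone (both highest without VCD_High_PBDE_E2_P4). Sfrp4 was also above 0 with estradiol without VCD_High_PBDE_E2_P4 (0.12) and with progesterone without VCD_High_PBDE_E2 (0.0062). An adjusted p that DESeq2 did not give was left out. The sums held 8 to 90 cells and 131148 to 1370016 UMIs per library, and a call that was not made does not show that a gene did not differ.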
